A study of Mus musculus with 9 samples.

Results

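The genes described here are 9 markers of homeostatic microglia, Csf1r, P2ry12, Tmem119, Cx3cr1, Aif1, Siglech, Fcrls, Trem2 and Tyrobp. They were found by their Ensembl identifiers among the 14779 genes of a hippocampal RNA-seq table, and all 9 were present and passed the filter on low counts, which left 14696 genes. Hippocampus of mice was profiled in 9 libraries of polyadenylated RNA, 3 in each of 3 groups, and the design text gives 3 mice for each group. CIE+IL17 Ab mice were exposed to chronic intermittent ethanol (CIE) and given an antibody against interleukin 17A. CIE+IgG mice had the ethanol exposure and IgG (treatment labelled iso), and Air+IgG mice were kept in air and given the same IgG. Both CIE groups therefore share the ethanol exposure, all animals received an immunoglobulin, and no group of air-kept mice with the IL-17A antibody is among the libraries. Strain, age and the times of exposure and injection are not given in the labels used here. Library totals ranged from 7372658 to 11894628 estimated counts.

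Microglia are the resident macrophages of the brain. In the healthy adult they survey the tissue with motile processes and depend on signalling through the receptor Csf1r, which the ligands Csf1 and Il34 activate. The homeostatic state is marked by sensing receptors such as P2ry12 and Cx3cr1, and it is maintained by TGF-beta signalling and by the transcription factors PU.1 (Spi1), Irf8 and Sall1. In injury and neurodegeneration microglia in mice lower these markers and raise a disease-associated set of genes, a change that involves Trem2 and its adaptor Tyrobp.

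In CIE+IL17 Ab hippocampus, Csf1r and P2ry12 fell against CIE+IgG, 2 of 9 genes where 1.41% of all tested genes fell (edgeR quasi-likelihood test with Benjamini-Hochberg adjustment over all 14696 genes, threshold 0.05). Against Air+IgG the same 2 genes and Tmem119 fell, 3 of 9 where 6.71% of all tested genes fell. Values were below 0 for 8 of the 9 genes against CIE+IgG and for 9 of 9 against Air+IgG, with median log2 fold changes of -0.31 and -0.37. Aif1 was the exception against CIE+IgG. The members were chosen with earlier results of these data known, so these shares describe them and do not test the set. Between CIE+IgG and Air+IgG, 0 of the 9 genes passed, where 0% of all tested genes did. In bulk tissue, fewer microglia and less of these RNAs in each microglial cell cannot be told apart.

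RefSeq sequences upstream of the transcription start (GRCm38.p6) were held for 6 members, P2ry12, Cx3cr1, Aif1, Siglech, Fcrls and Trem2. They were searched for GGAAGT, a sequence that PU.1 and related ETS factors bind, and for its reverse complement ACTTCC. It was chosen because PU.1 is the main lineage factor of microglia and several members moved together. Within 250 bases upstream of the start, 3 of the 6 members held a match, P2ry12, Siglech and Fcrls, and 19.7% of 32851 RefSeq promoters did. The 3 windows are shown 5′ to 3′ on the strand of the gene, with the match in capitals. The P2ry12 window is chr3:59262986-59263085 on the minus strand and covers the last 100 bases before the start. The Siglech window is chr7:55767981-55768080 on the plus strand. The Fcrls window of 30 bases is chr3:87263582-87263611 on the minus strand. The RefSeq and GENCODE starts differ for these genes, and the Fcrls window, upstream of the RefSeq start, lies within the GENCODE span of the gene.
P2ry12: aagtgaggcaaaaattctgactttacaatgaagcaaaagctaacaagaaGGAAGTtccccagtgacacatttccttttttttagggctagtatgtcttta
Siglech: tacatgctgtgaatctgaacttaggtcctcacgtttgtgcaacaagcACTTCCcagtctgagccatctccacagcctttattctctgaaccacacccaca
Fcrls: gacaactttgccACTTCCtttttttcctat
The match lay on the coding strand in P2ry12 and on the opposite strand in Siglech and Fcrls. Cx3cr1, Aif1 and Trem2 held no match in this window, which says only that these letters are not there.

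Members differed widely in level. Library-scaled counts (CPM, with TMM factors) were divided by the length of the longest protein-coding transcript of each gene in GENCODE M21, to set genes beside each other. Over the 9 libraries Csf1r had the highest level, at 20.7 CPM per kilobase, followed by P2ry12 at 15.1 and Tyrobp at 14.7. Cx3cr1 had 8.96, Trem2 8.57, Tmem119 7.41, Fcrls 6.40, Siglech 5.10 and Aif1 3.45 CPM per kilobase. P2ry12 and Tyrobp were neighbours that did not differ beyond their spread, with 11.7 ± 0.586 and 12.3 ± 2.54 CPM per kilobase in CIE+IL17 Ab, 16.6 ± 1.16 and 15.2 ± 1.94 in CIE+IgG, and 17.0 ± 1.82 and 16.5 ± 1.78 in Air+IgG (SD, n = 3 each). Cx3cr1 and Trem2 were as close in CIE+IL17 Ab, with 7.93 ± 1.27 and 7.97 ± 0.176 CPM per kilobase. Fcrls and Siglech were close in CIE+IL17 Ab, with 4.81 ± 1.22 and 4.52 ± 0.475, and apart in CIE+IgG, with 6.70 ± 0.476 and 5.37 ± 0.280. With the length of all annotated exons of a gene in place of the transcript, the first 4 places were the same. Trem2 then moved to the lowest place, at 1.88 CPM per kilobase, since its annotated exons cover 4946 bases and its longest coding transcript 1088.

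Of the 3 receptors for signals from other cells, Csf1r and P2ry12 fell and Cx3cr1 did not pass the test. Csf1r (ENSMUSG00000024621, chr18:61100598-61132149 on the plus strand of GRCm38) is the receptor tyrosine kinase on which microglial survival depends. It had 77.8, 79.4 and 85.8 CPM in the CIE+IL17 Ab libraries, 107, 106 and 106 CPM in the CIE+IgG libraries and 97.8, 113 and 103 CPM in the Air+IgG libraries. Every CIE+IL17 Ab library lay below all 6 others, and the group means were 81.0 ± 4.19, 106 ± 0.518 and 105 ± 7.67 CPM (SD, n = 3 each) in CIE+IL17 Ab, CIE+IgG and Air+IgG. The log2 fold change was -0.39 with a standard error of 0.079 against CIE+IgG (edgeR adjusted p = 0.0418) and -0.37 with 0.079 against Air+IgG (edgeR adjusted p = 0.0223), a level 23.6% and 22.6% lower. Csf1r had between 560 and 1132 counts per library. The exons of Csf1r share 873 bases with Hmgxb3 on the opposite strand. The libraries are stranded per the labels, but the strand setting of the counting is not given, so reads in that stretch may be divided between both genes. Hmgxb3 itself had a log2 fold change of -0.20 against CIE+IgG, which did not pass (edgeR adjusted p = 0.242).

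P2ry12 (ENSMUSG00000036353, chr3:59216272-59262871, minus strand) is the purinergic receptor through which microglial processes sense ADP. The CIE+IL17 Ab libraries had 29.0, 26.9 and 26.5 CPM, the CIE+IgG libraries 41.7, 38.7 and 36.3 CPM and the Air+IgG libraries 35.4, 44.0 and 40.0 CPM. No CIE+IL17 Ab library reached the lowest of the other 6, and the means were 27.5 ± 1.37, 38.9 ± 2.71 and 39.8 ± 4.28 CPM (SD, n = 3 each) in CIE+IL17 Ab, CIE+IgG and Air+IgG. P2ry12 fell by 0.50 on the log2 scale against CIE+IgG, with a standard error of 0.104 (edgeR adjusted p = 0.0436), and by 0.53 against Air+IgG (edgeR adjusted p = 0.0176). This corresponds to levels 29.4% and 30.9% lower. Only 9 exonic bases are shared with Med12l, in which P2ry12 lies on the opposite strand, and Med12l had a log2 fold change of 0.13 against CIE+IgG (edgeR adjusted p = 0.652).

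Cx3cr1 (ENSMUSG00000052336, chr9:119901616-120069879, minus strand) is the receptor for the neuronal chemokine fractalkine. Its levels were 29.0, 38.4 and 39.4 CPM in CIE+IL17 Ab, 40.0, 43.0 and 49.2 CPM in CIE+IgG and 38.9, 46.9 and 37.3 CPM in Air+IgG. The CIE+IL17 Ab libraries lay below the CIE+IgG ones by a narrow margin and overlapped with Air+IgG. Neither difference passed, with log2 fold changes of -0.30 (edgeR adjusted p = 0.256) and -0.20 (edgeR adjusted p = 0.385).

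**Figure D1:**
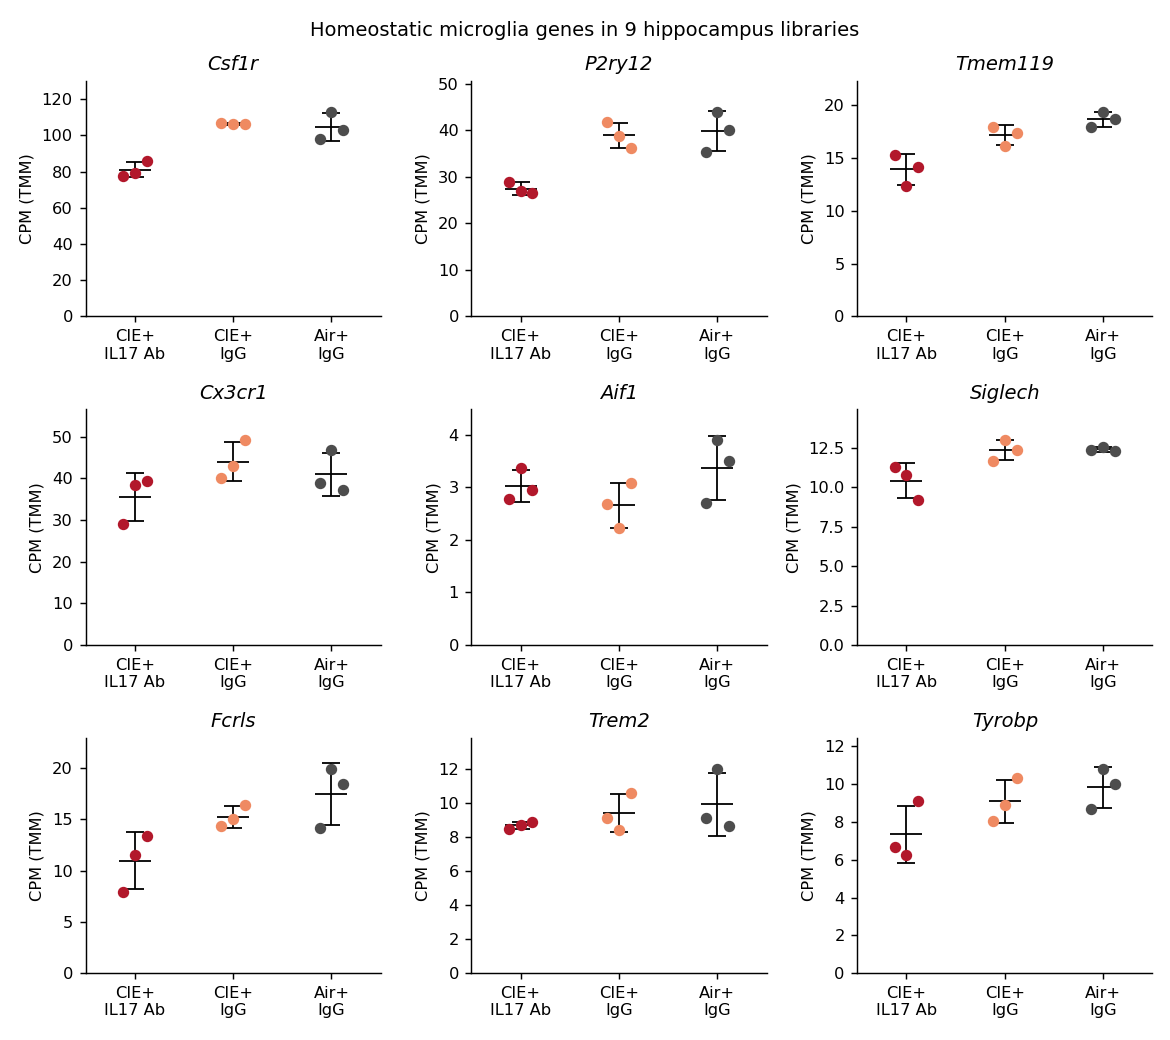
Level of each of the 9 genes in CPM with TMM scaling (vertical axis from 0, scales differ between panels) in the 3 libraries of each group (points in replicate order), with the group mean and SD (lines). Csf1r, P2ry12 and Tmem119 are below every CIE+IgG and Air+IgG library in all 3 CIE+IL17 Ab libraries, and Aif1 is not.

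Among the surface proteins, Tmem119 (ENSMUSG00000054675, chr5:113793729-113800516, minus strand) is a transmembrane protein used to tell microglia from other macrophages in the brain. It had 15.3, 12.4 and 14.2 CPM in CIE+IL17 Ab, 18, 16.2 and 17.4 CPM in CIE+IgG and 18, 19.4 and 18.7 CPM in Air+IgG, with no overlap of CIE+IL17 Ab with either group. It fell by 0.42 on the log2 scale against Air+IgG (standard error 0.112, edgeR adjusted p = 0.0399). Against CIE+IgG it had -0.31 and did not pass (edgeR adjusted p = 0.153).

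Fcrls (ENSMUSG00000015852, chr3:87250758-87263738, minus strand), an Fc receptor-like scavenger receptor that is highly selective for microglia in mice, had the most negative log2 fold change of the 9 against Air+IgG, -0.66, and did not pass there (edgeR adjusted p = 0.0594). Its CIE+IL17 Ab libraries had 7.92, 11.5 and 13.4 CPM, the CIE+IgG libraries 14.3, 15.0 and 16.4 CPM and the Air+IgG libraries 14.1, 19.9 and 18.4 CPM. All 3 CIE+IL17 Ab values were below the other 6, but they were spread widely, with a coefficient of variation of 25.4%. The log2 fold change against CIE+IgG was -0.47 (edgeR adjusted p = 0.209). Fcrls passed against Air+IgG in 2 of 21 alternatives. These were the DESeq2 Wald test (DESeq2 adjusted p = 0.0254) and the omission of CIE+IL17 Ab replicate 3 (edgeR adjusted p = 0.0299). Siglech (ENSMUSG00000051504, chr7:55768178-55778925, plus strand), a sialic acid-binding lectin that signals through Tyrobp, had 11.3, 10.8 and 9.18 CPM in CIE+IL17 Ab, 11.7, 13.0 and 12.4 CPM in CIE+IgG and 12.4, 12.6 and 12.3 CPM in Air+IgG. The CIE+IL17 Ab libraries lay below all others, CIE+IgG and Air+IgG overlapped, and the log2 fold changes of -0.25 and -0.26 did not pass (edgeR adjusted p = 0.265 and 0.183).

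Neither the lipid-sensing receptor Trem2 nor its adaptor passed the test. Trem2 (ENSMUSG00000023992, chr17:48346401-48354147, plus strand) binds lipids and lipoproteins and has no signalling domain of its own. It had 8.48, 8.69 and 8.86 CPM in CIE+IL17 Ab, 9.13, 8.43 and 10.6 CPM in CIE+IgG and 9.10, 12.0 and 8.62 CPM in Air+IgG, and the 3 groups overlapped. The log2 fold changes were -0.12 with a standard error of 0.165 against CIE+IgG (edgeR adjusted p = 0.741) and -0.18 with 0.165 against Air+IgG (edgeR adjusted p = 0.482). Tyrobp (ENSMUSG00000030579, chr7:30413760-30417585, plus strand), also called DAP12, carries the signalling motif for Trem2 and Siglech. It had 6.67, 6.26 and 9.07 CPM in CIE+IL17 Ab, 8.05, 8.90 and 10.3 CPM in CIE+IgG and 8.67, 10.8 and 10.0 CPM in Air+IgG. CIE+IL17 Ab replicate 3 lay within the range of both other groups, and the log2 fold changes of -0.31 and -0.42 did not pass (edgeR adjusted p = 0.363 and 0.159). Their standard error of 0.187 was larger than that of Tmem119, 0.112, whose values were of like size.

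Aif1 (ENSMUSG00000024397, chr17:35170991-35176068, minus strand) encodes the cytoplasmic calcium-binding protein IBA1, whose antibody staining is the usual way to see microglia. It had 2.78, 3.37 and 2.95 CPM in CIE+IL17 Ab, 2.68, 2.22 and 3.08 CPM in CIE+IgG and 2.71, 3.90 and 3.50 CPM in Air+IgG. The 3 groups overlapped. Aif1 was the only member with a positive value against CIE+IgG, 0.19 with a standard error of 0.239 (edgeR adjusted p = 0.702), and it had -0.14 against Air+IgG (edgeR adjusted p = 0.746). It was also the most shallowly counted member, with 19 to 43 counts per library.

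**Figure D2:**
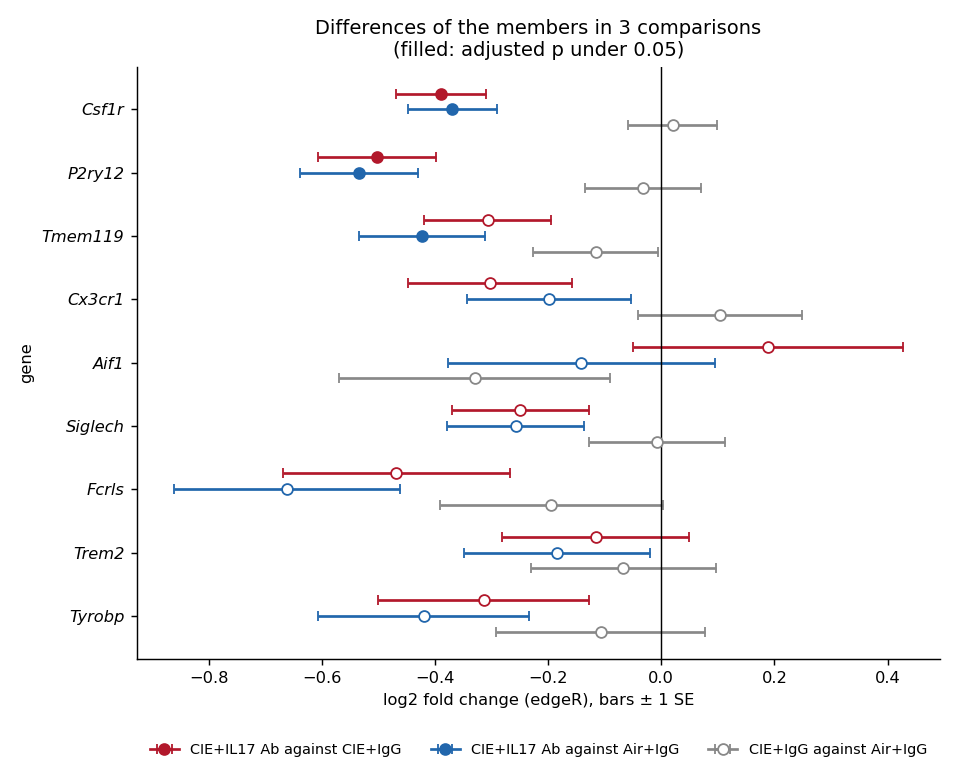
Log2 fold change of each gene (horizontal axis) with its standard error in CIE+IL17 Ab against CIE+IgG, CIE+IL17 Ab against Air+IgG and CIE+IgG against Air+IgG; filled points passed an adjusted p of 0.05. Both comparisons of CIE+IL17 Ab have filled points at Csf1r (-0.39 and -0.37) and P2ry12 (-0.50 and -0.53), and values of CIE+IgG against Air+IgG run from -0.33 for Aif1 to 0.10 for Cx3cr1.

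Against CIE+IgG, 2 of the 9 members passed, both lower. Over all tested genes 3.18% passed, 1.41% lower and 1.78% higher. Groups without overlap and lower in CIE+IL17 Ab were found for 6 of 9 members, where 13.2% of all tested genes had this pattern. Values below 0 were found for 8 of 9 members and for 47.8% of all tested genes, whose median log2 fold change was 0.015. An unadjusted p under 0.05 in edgeR was reached by 4 members, all lower, where 22.3% of all genes reached it, 11.4% lower and 10.9% higher. Against Air+IgG, 3 of 9 passed, all lower, where 13.5% of all genes passed, 6.71% lower and 6.83% higher. An unadjusted p under 0.05 in edgeR was reached by 4 of 9, all lower, and by 32% of all genes, 15.7% lower and 16.3% higher. No overlap and lower values were found for 5 of 9 members and for 18.1% of all genes, and 9 of 9 members were below 0, against 48.4% of all genes, with a median over all genes of 0.012. Both comparisons share the CIE+IL17 Ab libraries and are not independent of each other. The members were chosen with earlier results of these data known, and they varied together in part. The shares set beside all genes are therefore a description and not a test of the set.

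The calls rest on few libraries. Against CIE+IgG, 0 of the 9 members passed without Air+IgG replicates 1 or 3, CIE+IgG replicates 1 or 2, or CIE+IL17 Ab replicates 1 or 2, and 1 passed without Air+IgG replicate 2. Against Air+IgG, 0 passed without Air+IgG replicates 2 or 3 or CIE+IL17 Ab replicate 2, and Tmem119 alone lost its call in 5 further cases. The log2 fold change of Csf1r stayed between -0.44 and -0.35 against CIE+IgG over 21 alternatives and that of P2ry12 between -0.56 and -0.45. Other members moved more, with Fcrls between -0.64 and -0.295, Tyrobp between -0.50 and -0.10 and Trem2 between -0.19 and -0.021 against CIE+IgG. With a fit of only CIE+IL17 Ab and CIE+IgG, Csf1r had -0.39 (edgeR adjusted p = 0.12) and P2ry12 -0.51 (edgeR adjusted p = 0.119).

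Libraries carry label numbers of 37 to 39, 1 in each group, or 54 to 60, the other 6. What the numbers mean is not given, and they were treated as a possible batch. In the 6 libraries numbered 54 to 60, the log2 fold change against CIE+IgG was -0.38 for Csf1r (edgeR adjusted p = 0.247) and -0.54 for P2ry12 (edgeR adjusted p = 0.215), and the median over the 9 members was -0.28. Against Air+IgG the median was -0.32 in these libraries, with -0.37 for Csf1r and -0.52 for P2ry12. Between the single libraries numbered 37 to 39, for which there is no test, 8 of 9 members were lower in CIE+IL17 Ab than in CIE+IgG, with a median log2 difference of -0.41, and 7 of 9 were lower than in Air+IgG, with a median of -0.38.

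**Figure D3:**
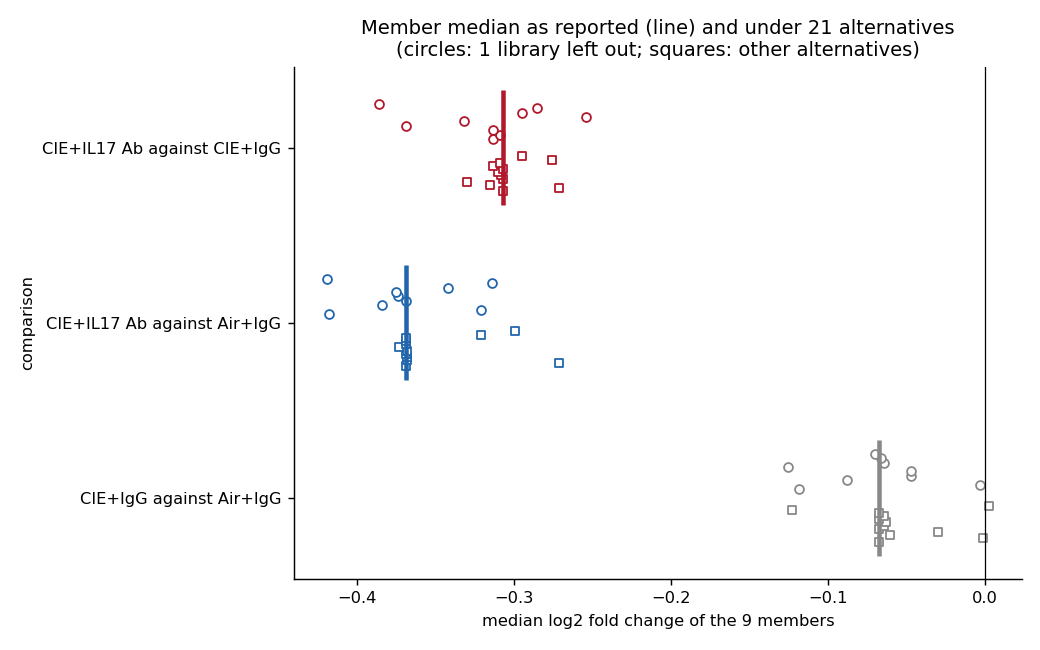
Median log2 fold change of the 9 genes (horizontal axis) in each comparison as reported (line), with 1 library left out (circles) and under the other alternatives (squares). The median for CIE+IL17 Ab against CIE+IgG ranges from -0.39 to -0.25 and that against Air+IgG from -0.42 to -0.27, and the values of CIE+IgG against Air+IgG reach 0.

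Ethanol exposure with IgG gave no call among these genes. Between CIE+IgG and Air+IgG the members had a median log2 fold change of -0.067, against -0.0073 over all tested genes, with 7 of 9 below 0, where 52% of all genes were, and a range from -0.33 for Aif1 to 0.10 for Cx3cr1. None passed in edgeR, where 0 of all genes passed and 406 (2.76%) had an unadjusted p under 0.05, 1.65% higher and 1.11% lower, among them 0 members. DESeq2 and limma-voom also gave 0 members, with 6 and 0 genes over the whole table. Standard errors of these log2 fold changes ran from 0.078 for Csf1r to 0.239 for Aif1, so the precision differed widely between members. All 9 members overlapped between CIE+IgG and Air+IgG, where 4.80% of all genes had no overlap and were lower and 4.64% were higher.

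The members varied together in part. The mean deviation of the 9 genes from their means over all libraries (log2 CPM) was -0.29, -0.21 and -0.13 in CIE+IL17 Ab, 0.033, 0.014 and 0.15 in CIE+IgG and 0.0070, 0.30 and 0.13 in Air+IgG. All 3 CIE+IL17 Ab libraries were the lowest of the 9. Over the 9 libraries, the Pearson correlation of 36 pairs of members had a median of 0.60, from -0.06 for Aif1 with Siglech to 0.94 for Csf1r with P2ry12. After the group means were removed the median was 0.32, with 25 of 36 pairs above 0. Csf1r with P2ry12 then had 0.49, Cx3cr1 with Fcrls 0.82, and Siglech with Fcrls -0.54. These values describe 9 libraries that share their groups and depth.

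The genes whose log2 CPM was most like the mean of the members over the 9 libraries were not microglial markers. Among 12114 genes with a mean of at least 5 CPM, the 10 highest were Eef1a1, a translation elongation factor (Pearson r = 0.973), Pde7a, a phosphodiesterase (0.972), Atg16l1, an autophagy protein (0.962), the ubiquitin ligase March6 (0.960), the nuclear pore protein Ranbp2 (0.958), Usp3 (0.957), Plpp5 (0.956), Clptm1l (0.955), Csnk1a1 (0.955) and Klhl23 (0.954). An r above 0.7 was reached by 1878 genes, 15.5% of those ranked. It was reached by 10 of 22 ranked genes of a second microglial list (median r 0.60) and by 6 of 7 CA1 pyramidal genes (median 0.80). Of 10 oligodendrocyte genes (median -0.64) and 10 thalamus and habenula genes (median -0.81), 0 reached it. These r values over all 9 libraries include the differences between groups. After the group means were removed, the 10 named genes had r values from 0.797 for Klhl23 to 0.985 for Atg16l1. They had been picked by their r before that removal.

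Other genes of microglia were mostly below 0 as well. A list of 29 further microglial genes, among them the P2ry12 relative P2ry13, Gpr34, Selplg and the complement C1q chains, had 28 tested. Against CIE+IgG 26 of the 28 were below 0, with a median log2 fold change of -0.26. While 1.41% of all tested genes fell, 1 of the 28 fell and 0 rose. The gene that fell was Mertk, a receptor for the uptake of dying cells that astrocytes also express, which had 43.9, 44.1 and 54.8 CPM in CIE+IL17 Ab, 67.0, 66.0 and 66.4 CPM in CIE+IgG and 56.8, 61.9 and 65.5 CPM in Air+IgG. Its log2 fold change was -0.48 against CIE+IgG (edgeR adjusted p = 0.0458). Selplg, the ligand of P-selectin, had -0.37 (edgeR adjusted p = 0.0804) and Gpr34, a receptor for lysophosphatidylserine, had -0.44 (edgeR adjusted p = 0.16), and neither passed. Set against Air+IgG, the list had a median of -0.19 and 21 of 28 genes below 0. In that comparison 2 of 28 fell, a share near the 6.71% of all tested genes that fell. They were Mertk, by 0.37, and the Golgi protein Golm1, by 1.71 on the log2 scale. Golm1 had 18.3, 21.2 and 49.6 CPM in CIE+IL17 Ab and 88.2, 119 and 85.1 CPM in Air+IgG. The cells that its RNA came from were not tested. Between CIE+IgG and Air+IgG the median was 0.095 with 21 of 28 above 0, and 0 passed. There Fcgr3, an Fc receptor for IgG, had the smallest p, with -0.34.

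Ligands and signalling partners of the members were examined as a list of 16 genes, 15 of them tested. Il34, the neuronal ligand of Csf1r, had 17.8, 9.78 and 12.8 CPM in CIE+IL17 Ab, 22.7, 21.3 and 19.7 CPM in CIE+IgG and 24.8, 24.1 and 23.3 CPM in Air+IgG, with CIE+IL17 Ab below all other libraries. It fell by 0.86 on the log2 scale against Air+IgG (edgeR adjusted p = 0.0246) and had -0.67 against CIE+IgG (edgeR adjusted p = 0.0826). Csf1, the other ligand, had 0.035 against CIE+IgG and 0.096 against Air+IgG, with neither passing. Cx3cl1, the fractalkine ligand of Cx3cr1, had -0.41 against CIE+IgG (edgeR adjusted p = 0.22) and -0.42 against Air+IgG (edgeR adjusted p = 0.147). Below the receptors, the kinase Syk, which Tyrobp recruits, had -0.91 (edgeR adjusted p = 0.127), and the lipid phosphatase Inpp5d had -0.405 (edgeR adjusted p = 0.148) against CIE+IgG. Kcnk13, the potassium channel THIK-1 of microglia, had the opposite sign and rose by 0.67 against Air+IgG (edgeR adjusted p = 0.0449). In all, 0 of the 15 passed against CIE+IgG, with a median of -0.24 and 11 below 0. Against Air+IgG 1 rose and 1 fell, with a median of -0.039. These shares are near the 6.83% of all tested genes that rose and the 6.71% that fell. Between CIE+IgG and Air+IgG 0 passed, with a median of 0.084, and the phosphatase Ptpn6 had the smallest p, with 0.46.

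The transcription factors and TGF-beta genes that maintain the homeostatic state gave 0 of 15 passing against CIE+IgG, with a median of -0.086 and 10 below 0. Spi1 had 0.29 with a standard error of 0.326, Irf8 -0.011 with 0.24 and Sall1 -0.004 with 0.101 against CIE+IgG. Spi1 was shallowly counted, with 11 to 25 counts per library. Smad3 had the smallest p in this comparison, with -1.08 (edgeR adjusted p = 0.132). The cells that the Smad3 RNA came from were not tested. Against Air+IgG 1 fell, Mef2c, a factor that neurons also express, by 1.14 (edgeR adjusted p = 0.0477). A share of 1 in 15 is near the 6.71% of all tested genes that fell, and the median was -0.15. Against Air+IgG, CIE+IgG had a median of -0.091 for this list with 0 passing, and Sall1 had the smallest p, with 0.26.

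Genes of activated and disease-associated microglia had medians near or above 0. Of 22 listed, 17 were tested, and against CIE+IgG 0 passed, with a median of -0.041 and 10 below 0. Lpl, a lipoprotein lipase that pyramidal neurons also express, had the smallest p there, with -1.59 (edgeR adjusted p = 0.0835). Lpl fell by 1.81 against Air+IgG (edgeR adjusted p = 0.034), the only call of this list. A share of 1 in 17 is near the 6.71% of all tested genes that fell. The list's median against Air+IgG was 0.18, with 14 of 17 above 0. Apoe, an apolipoprotein of the ligand list that disease-associated microglia raise, had 0.087 against CIE+IgG. The listed genes Cst7, Itgax, Clec7a, Ccl3 and Ccl4 were not among the tested genes, either absent from the deposited counts or removed as low. The medians do not cover them. Some tested genes had far higher levels than the members, such as Fth1 with 616 CPM and Ctsb with 461 CPM in Air+IgG, where Csf1r had 105 CPM. The cells that these RNAs came from were not tested, so the medians are not a measure of microglia alone. Between CIE+IgG and Air+IgG 0 of 17 passed, with a median of 0.145, and Ctsd, a lysosomal protease, had the smallest p, with 0.235.

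**Figure D4:**
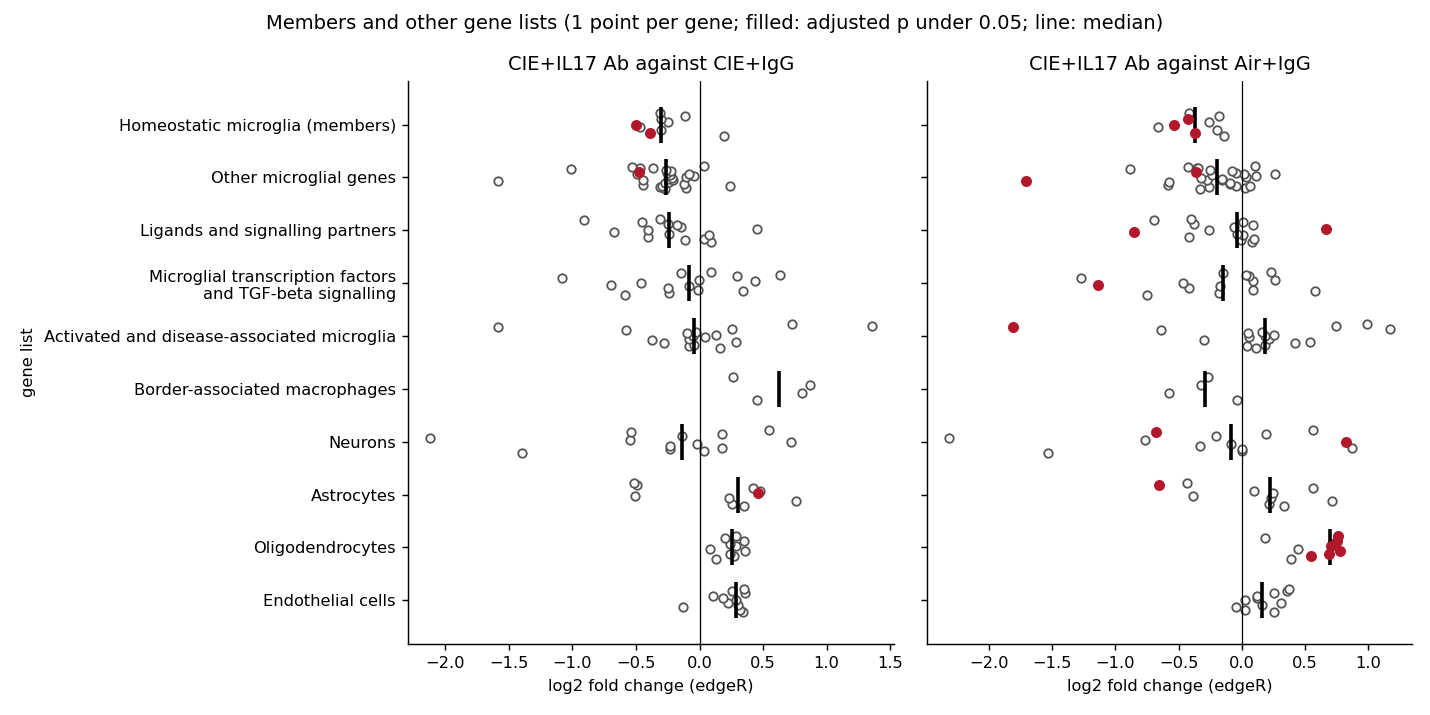
Log2 fold changes of single genes (points) in the members and 9 other gene lists, with the list median (line), for CIE+IL17 Ab against CIE+IgG (left) and against Air+IgG (right); filled points passed an adjusted p of 0.05. The members and the other microglial genes lie to the left, with medians of -0.31 and -0.26 against CIE+IgG, and oligodendrocyte and endothelial genes to the right, with 0.26 and 0.29.

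Other macrophages and blood cells were read from their own markers. Of 13 genes of border-associated macrophages, which sit in the meninges and around vessels, 4 were tested, Mrc1, Cd163, F13a1 and Stab1. All 4 were above 0 against CIE+IgG, with a median of 0.63, and below 0 between CIE+IgG and Air+IgG, with a median of -0.86, and 0 passed in either. F13a1 had 2.92, 3.60 and 3.48 CPM in CIE+IL17 Ab, 1.61, 1.76 and 2.33 CPM in CIE+IgG and 4.66, 5.51 and 4.83 CPM in Air+IgG, with the CIE+IgG libraries below both other groups. Its log2 fold changes were 0.81 in CIE+IL17 Ab against CIE+IgG (edgeR adjusted p = 0.0847) and -1.38 in CIE+IgG against Air+IgG (edgeR adjusted p = 0.791). Of 15 blood leukocyte genes 3 were tested, and 0 passed in any comparison. The summed level of these 3 genes was 7.09 to 15.0 CPM in CIE+IL17 Ab, 6.79 to 23.0 CPM in CIE+IgG and 4.44 to 7.91 CPM in Air+IgG.

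Markers of brain regions next to the hippocampus moved with the antibody group, and their part in the microglial result was not tested. A list of 15 thalamus and habenula genes had 14 tested, of which 11 rose against CIE+IgG and 14 against Air+IgG. Over all tested genes 1.78% and 6.83% rose. This list and the CA1 list below were chosen with earlier results of these data known. Their shares are therefore a description and not a test. The summed level of the 14 was 1017 to 1679 CPM in CIE+IL17 Ab, 177 to 303 CPM in CIE+IgG and 136 to 199 CPM in Air+IgG. Pou4f1, a habenular transcription factor, was at 0 counts in 4 libraries and had 247 counts over CIE+IL17 Ab, 1 over CIE+IgG and 1 over Air+IgG. CA1 pyramidal neurons are a defining cell type of the labelled hippocampus, and their genes were detected in every group. Of 7 such genes, 4 fell against CIE+IgG and 5 against Air+IgG, where 1.41% and 6.71% of all tested genes fell. The 7 had summed levels of 101 to 199 CPM in CIE+IL17 Ab, 325 to 563 CPM in CIE+IgG and 533 to 622 CPM in Air+IgG. Within CIE+IL17 Ab, the mean deviations of the members in replicates 1, 2 and 3 (-0.29, -0.21 and -0.13) stood beside thalamus and habenula deviations of 1.79, 2.71 and 2.0 and CA1 deviations of -1.97, -2.07 and -0.64.

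Marker lists of other cell types had medians on both sides of 0. Oligodendrocyte genes had a median of 0.26 against CIE+IgG, with 10 of 10 above 0 and 0 passing, and 0.70 against Air+IgG, where 6 of 10 rose, among them Mbp, the myelin basic protein, by 0.70 (edgeR adjusted p = 0.0191). Endothelial genes had a median of 0.29 against CIE+IgG and 0.16 against Air+IgG, with 10 of 11 above 0 and 0 passing in both. Astrocyte genes had 0.30 against CIE+IgG, where the gap junction gene Gja1 rose by 0.46 (edgeR adjusted p = 0.046), and 0.22 against Air+IgG, where the glutamate transporter Slc1a2 fell by 0.65 (edgeR adjusted p = 0.0185). Neuronal genes had a median of -0.14 against CIE+IgG with 0 of 13 passing, and -0.088 against Air+IgG. Against Air+IgG the neurofilament Nefm rose by 0.83 (edgeR adjusted p = 0.0235). The synaptic vesicle protein Syt1 fell there by 0.68 (edgeR adjusted p = 0.039). The neuronal medians cover a wide range. Slc17a7 had -2.12 against CIE+IgG (edgeR adjusted p = 0.15) and -2.32 against Air+IgG (edgeR adjusted p = 0.078). Camk2a had -1.39 (edgeR adjusted p = 0.199) and -1.53 (edgeR adjusted p = 0.108), and neither gene passed. Of the 13 genes, 5 were above 0 against CIE+IgG and 6 against Air+IgG. Choroid plexus and striatum genes varied between single libraries, and 0 of either list passed in any comparison. Over all tested genes 1.78% rose and 1.41% fell against CIE+IgG, and 6.83% rose and 6.71% fell against Air+IgG.

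**Figure D5:**
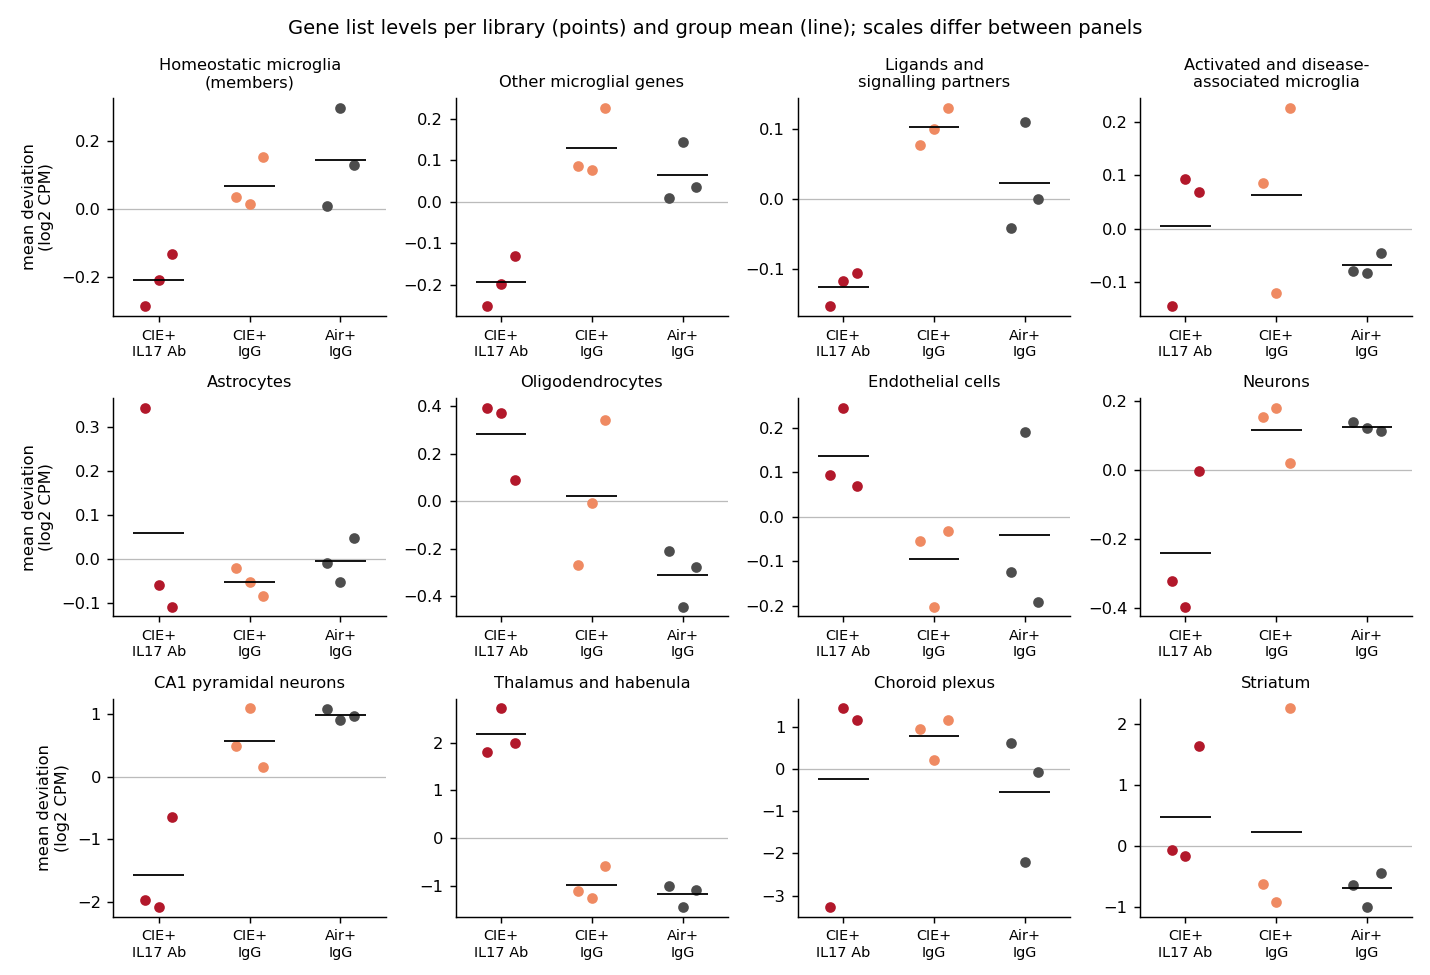
Mean deviation of the genes of a list from their means over the 9 libraries, in log2 CPM (vertical axis, scales differ between panels), for each library (points in replicate order) with the group mean (line). The members are at -0.29 to -0.13 in CIE+IL17 Ab and 0.0070 or higher in the other 6 libraries, and the thalamus and habenula list is at 1.79 to 2.71 in CIE+IL17 Ab and below 0 in the other 6.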

How the data were processed

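Hippocampal RNA of 9 libraries was read from 1 table. The authors deposited expected counts per gene, unscaled between libraries. Per the submitters' processing notes, the tools include RSEM 1.3.0 and STAR 2.5.1a and the build is GRCm38, with no settings given. The annotation they used and any gene filter are not stated in these sources. Expected counts split reads among genes that share sequence, and they were rounded here. GENCODE M21 gave a symbol to 14628 of 14779 identifiers. Low genes were removed with filterByExpr (minimum count 10). All 9 libraries entered 1 fit in edgeR 4.0.16 under R 4.3.3 with TMM scaling, glmQLFit (robust=TRUE) and the quasi-likelihood F-test, leaving 6 residual degrees of freedom. Benjamini-Hochberg adjustment ran over all tested genes of a comparison, and calls are under 0.05. A standard error is the size of the log2 fold change divided by the square root of F. Log2 CPM used a prior count of 2. Alternatives were DESeq2 1.42.0, limma-voom (limma 3.58.1), other scalings and filters, a replicate block, label numbers, and each library left out. The scripts were tested on simulated data. The members and lists were chosen with earlier results of these data known. The text names every member, up to 4 called genes of each list or else that with the smallest p, and the 10 genes most like the members. Further list genes were chosen after their values were seen, and genes of the thalamus, CA1, choroid plexus and striatum lists are mostly summed.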

Additional observations from a re-analysis of the deposited data

How the results depend on the processing

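The median over the members kept its sign in both comparisons of CIE+IL17 Ab under all 21 alternatives, and the calls changed. For CIE+IL17 Ab against CIE+IgG, 2 members and 468 genes were called. Library totals without TMM gave 1 and 300, a fit of only both groups 0 and 1, and label numbers 54 to 60 alone 0 and 1. DESeq2 called 1481 genes and a term for label numbers 776, with 2 members in both. Leaving out each replicate in turn gave 0 to 2 members and 0 to 1313 genes. For CIE+IL17 Ab against Air+IgG, 3 members and 1990 genes were called. Library totals gave 1 member, only both groups 1 and 1192 genes, label numbers 54 to 60 alone 0 and 2, and omission of the 2 libraries richest in Lars2 (CIE+IL17 Ab replicate 1 and Air+IgG replicate 2) 1 and 1067. Leaving out each replicate in turn gave 0 to 3 members and 0 to 2305 genes. For CIE+IgG against Air+IgG, DESeq2 called 6 genes against 0. The cause of these differences was not tested, though fewer libraries give fewer degrees of freedom.

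Same-numbered replicates had correlated deviations of -0.34 to 0.35, so the numbers were not taken to pair the samples. The 3 pairs among label numbers 37 to 39 had 0.13 to 0.3, and a term for label numbers kept 2 members called against CIE+IgG and 3 against Air+IgG. With a replicate block, 0 members and 14 genes were called against CIE+IgG, and 0 members and 571 genes for CIE+IL17 Ab against Air+IgG.

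Signs changed for small values. For CIE+IgG against Air+IgG, library totals gave 0.027 for P2ry12 and 0.047 for Siglech, label numbers 54 to 60 gave 0.024 for P2ry12 and -0.045 for Cx3cr1, and omission of the Lars2-rich libraries gave 0.043 for P2ry12, 0.003 for Siglech and 0.088 for Trem2. Leaving out each replicate in turn gave -0.022 to 0.071 for Csf1r, -0.104 to 0.038 for P2ry12, -0.047 to 0.03 for Siglech and -0.165 to 0.081 for Trem2. For CIE+IL17 Ab against Air+IgG, omission of the Lars2-rich libraries gave 0.029 for Cx3cr1 and 0.024 for Aif1.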
